A study of Caenorhabditis elegans with 40 samples.

Results

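The 8 heterochronic genes described here, *lin-14*, *lin-28*, *hbl-1*, *lin-41*, *daf-12*, *lin-46*, *lin-29* and *lin-42*, set the order or the pace of larval stages in *Caenorhabditis elegans*. They were taken by symbol from the WBcel235 annotation, whatever their level, and are 8 of the 19934 genes in the quantified transcriptome. Whole-body RNA-seq of third-larval-stage (L3) animals was available for 40 samples in 12 groups, made in 4 batches. Each cleavage or degron group was set against the control of its own batch, to ask whether animals without a given SMC complex, or under a given treatment, had the timing genes of the control animals. For each comparison this gives the level of 8 regulators whose abundance depends on developmental time.

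Every animal, controls included, carried the TEV protease under the heat-shock promoter *hsp-16.2*, inserted on chromosome II with the *unc-54* 3' end and a *Cbr-unc-119* marker. All were synchronised as starved L1 larvae, fed for 3 h at 22 °C, heat-shocked for 30 min at 34 °C and grown for another 19 h at 22 °C. Batch 1 compared the TEV control with strains whose *dpy-26*, *kle-2* or *scc-1* gene (alleles ubs4, ubs14 and ubs19) encodes a protein with a FLAG tag and TEV cleavage site, with 4 samples in each group. DPY-26 is the kleisin of condensin I and of condensin IDC, which dampens X-linked transcription, KLE-2 is the kleisin of condensin II, and SCC-1 is a kleisin of cohesin. Batch 2 compared the TEV control with strains cleavable in COH-1, another cohesin kleisin (allele ubs26), or in both COH-1 and SCC-1, with 3 samples in each group. Batch 3 held 3 groups of 3 samples, all on auxin. They were the TEV strain, the TEV strain that also expresses the plant F-box protein TIR1 (*eft-3* promoter, xeSi376, tagged with mRuby), and a TIR1 strain with cleavable DPY-26 and an N-terminal auxin degron on SDC-3 (ubs20), a protein that brings the dosage compensation complex to the X chromosome. Batch 4 held the TIR1 strain with the SDC-3 degron, with 1 mM auxin or on ethanol plates, with 3 samples in each group. TEV cuts proteins and auxin removes a protein, so the mRNA of a targeted gene does not check the labels. Each genotype was 1 strain, and no label says that replicates came from separate cultures (the study's text calls the COH-1 samples biological replicate batches), so p-values measure the spread between these samples only.

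Heterochronic genes form a cascade in which each stage is opened by the removal of a regulator of the stage before. The small RNAs lin-4 and the let-7 family reduce *lin-14*, *lin-28*, *hbl-1* and *lin-41* in turn, until LIN-29 can start the larval-to-adult switch of the skin, and the seam cells of the hypodermis are the classical place where the cascade is read. LIN-42, a relative of the PERIOD clock protein, has mRNA that rises and falls once per moulting cycle, so its level depends on the position within a stage rather than on the stage. The small RNAs of the cascade were not analysed here.

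Assigned reads per sample ran from 20460404 to 88427247, with a median of 38087560. The 8 genes had between 49 reads in a sample, for *lin-46*, and 37630 reads, for *lin-42*, so that all 8 passed the filter on low values (at least 10 reads in at least 50% of the samples compared) in all 12 comparisons. The stage label was checked against markers fixed in lists. Over the 40 samples, 6 vitellogenin genes of the adult intestine summed to 0.13 to 1.37 TPM (transcript abundance scaled for length and depth), 9 sperm genes to 0.41 to 1.304 TPM and 8 oocyte and eggshell genes to 4.42 to 12.7 TPM. Seam cell genes summed to 64.5 to 394 TPM, germline genes to 48.8 to 117 TPM and moulting cycle genes to 826 to 6701 TPM. The library of KLE-2 cleavage replicate 3 stood apart. Its mean correlation with the other samples of its group was 0.910, against 0.935 to 0.957 for the others, and its germline, oocyte, muscle and moulting lists were the highest of its group, at 587, 54.5, 5128 and 26322 CPM (reads scaled to a common library size). The 8 genes after KLE-2 cleavage are therefore given with and without it.

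**Figure D1:**
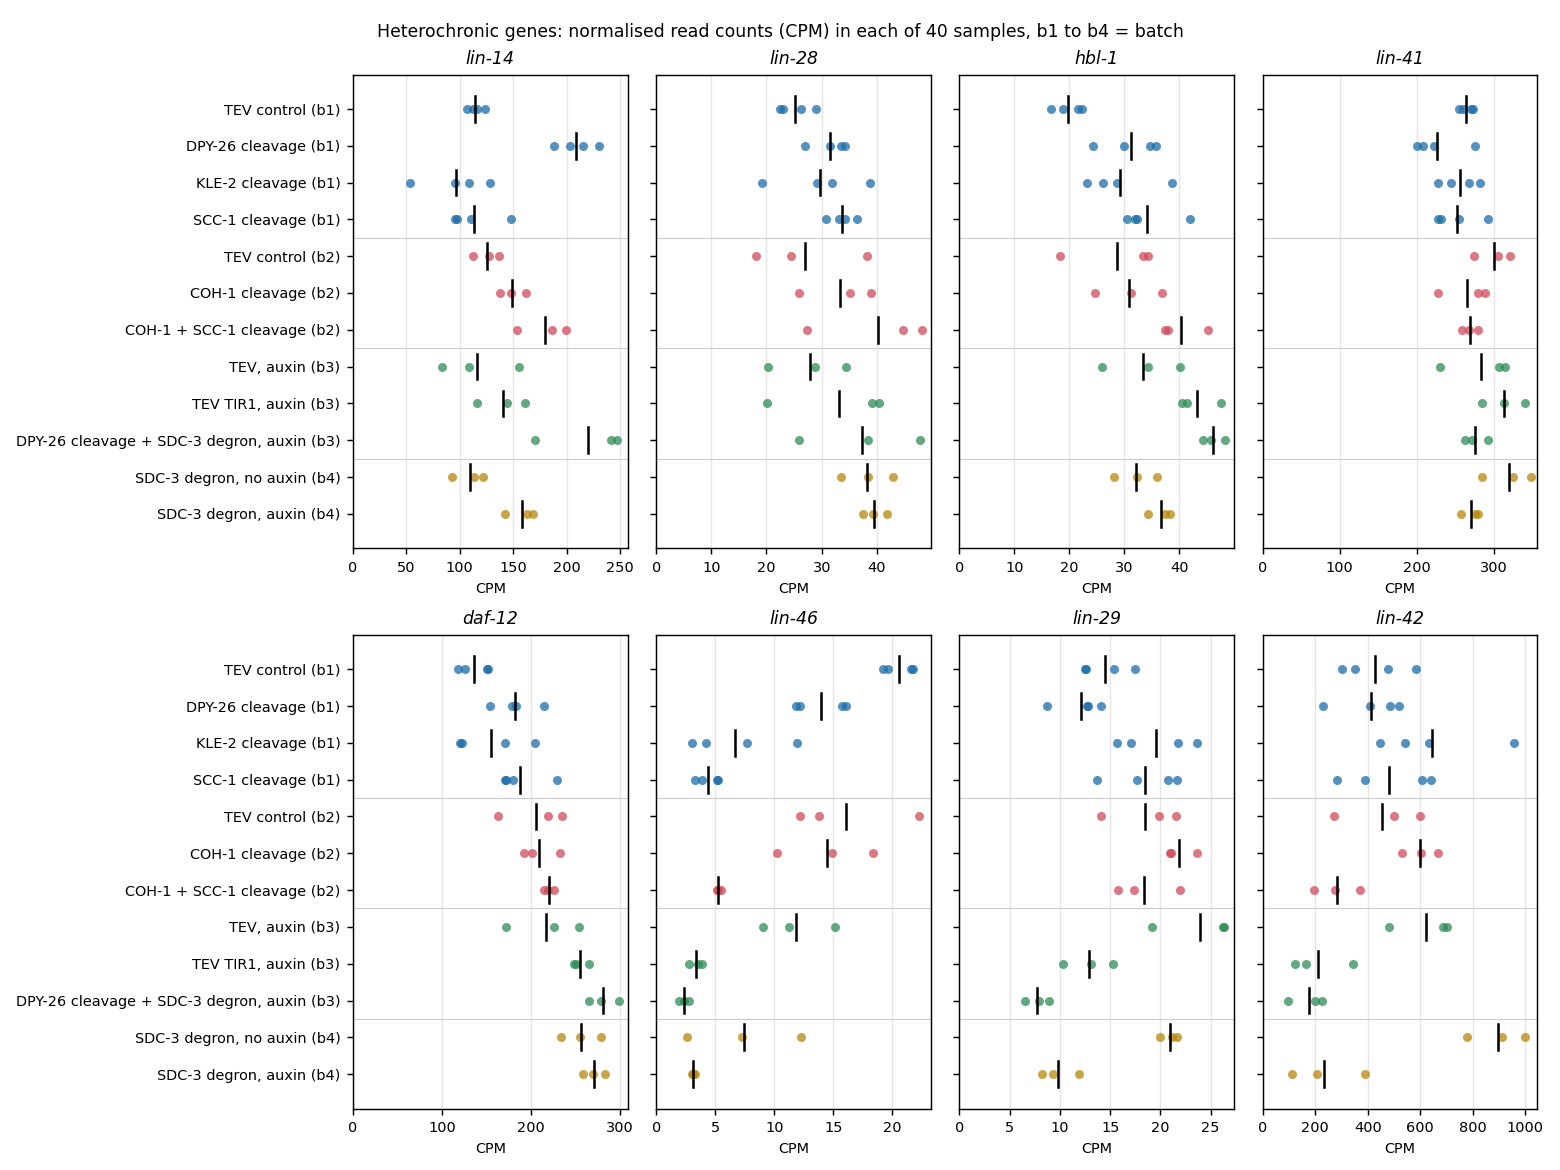
Level of each heterochronic gene in every sample, in CPM on a linear axis from 0, by group, with b1 to b4 and the colours marking batches. Each point is 1 sample and each vertical bar a group mean. *lin-46* and *lin-42* spread most, from 1.95 to 22.2 and from 98.5 to 999 CPM, while *lin-41* stayed between 201 and 349 CPM.

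Compared per transcript length over the 40 samples, *lin-42* was the highest of the 8 genes, with a median of 163 TPM and a range of 33.8 to 291 TPM. The medians of *daf-12*, *lin-41* and *lin-14* lay close together, at 44.1, 40.9 and 39.5 TPM. *daf-12* was above *lin-41* in 25 of 40 samples and *lin-41* above *lin-14* in 25 of 40, so these neighbours did not separate over all samples. The order of *daf-12* and *lin-41* mostly differed between batch 1 and the other batches. In batch 1 the group means were 24.6 to 33.5 TPM for *daf-12* and 32.4 to 37.5 TPM for *lin-41*. In the other batches they were 47.4 to 72.7 TPM and 39.7 to 54.7 TPM. Exceptions were DPY-26 cleavage in batch 1, with *daf-12* at 33.3 and *lin-41* at 32.4 TPM, and the batch 2 TEV control, at 51.0 and 52.1 TPM. *lin-28* followed at a median of 27.9 TPM and was above *lin-46* in 40 of 40 samples. *lin-46*, *lin-29* and *hbl-1* were lowest, at medians of 6.12, 6.11 and 6.09 TPM, and did not separate either. *lin-46* was above *lin-29* in 16 of 40 samples, and *lin-29* was above *hbl-1* in 24 of 40. From here on, levels are CPM scaled across the 40 samples (TMM), for comparison of 1 gene between samples, and a change is a log2 fold change with its standard error (SE) from edgeR's quasi-likelihood test. A gene is said to have risen or fallen where the p-value, adjusted by Benjamini-Hochberg over all genes of the comparison, was under 0.05. Groups without overlap are described as such but not counted as a change. With 3 against 3 samples, an exact permutation p cannot go below 0.1 even without overlap. How many of all genes lacked overlap was not counted.

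The number of heterochronic genes past that threshold went from 0 to 4 of 8 among the 7 comparisons with a cleavage or degron. After DPY-26 cleavage, *lin-14*, *hbl-1* and *daf-12* rose and *lin-46* fell, in a comparison in which 27.5% of all tested genes changed, 15.5% upward and 11.9% downward. After SCC-1 cleavage, *lin-28*, *hbl-1* and *daf-12* rose and *lin-46* fell, against 29.0% of all genes, 14.4% upward and 14.6% downward. After cleavage of COH-1 and SCC-1 together 2 of the 8 changed, *lin-14* upward and *lin-46* downward, against 21.3% of all genes (1452 rose and 1543 fell). None of the 8 passed after KLE-2 cleavage, where 1.17% of all genes changed (0.419% upward, 0.754% downward), or after COH-1 cleavage, where 0.00719% did. Without KLE-2 replicate 3 none of the 8 passed either, and 2.32% of all genes did. At an unadjusted p under 0.05 these comparisons held 3 and 0 of the 8 genes, against 15.2% and 6.27% of all genes, and DESeq2 called 1 and 0 of the 8, and 1003 and 120 genes in all. The study's text reports far more genes changed after COH-1 cleavage. It used its own transcript quantification and DESeq2, and left out genes that oscillate during development. *lin-29* fell in the SDC-3 degron animals, where 0.814% of all genes rose and 0.455% fell (1.27% together). It also fell in the animals with DPY-26 cleavage and SDC-3 degron, where 11.2% rose and 3.46% fell (14.7% together). In the comparison of the TIR1 strain with the TEV strain, both on auxin and with all SMC complexes uncut, *lin-29*, *lin-42* and *lin-46* fell, against 14.4% of all genes, 4.68% upward and 9.76% downward. DPY-26, KLE-2 and SCC-1 cleavage share their 4 controls and both batch 2 comparisons share their 3, so likeness between those comparisons is partly built in.

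**Figure D2:**
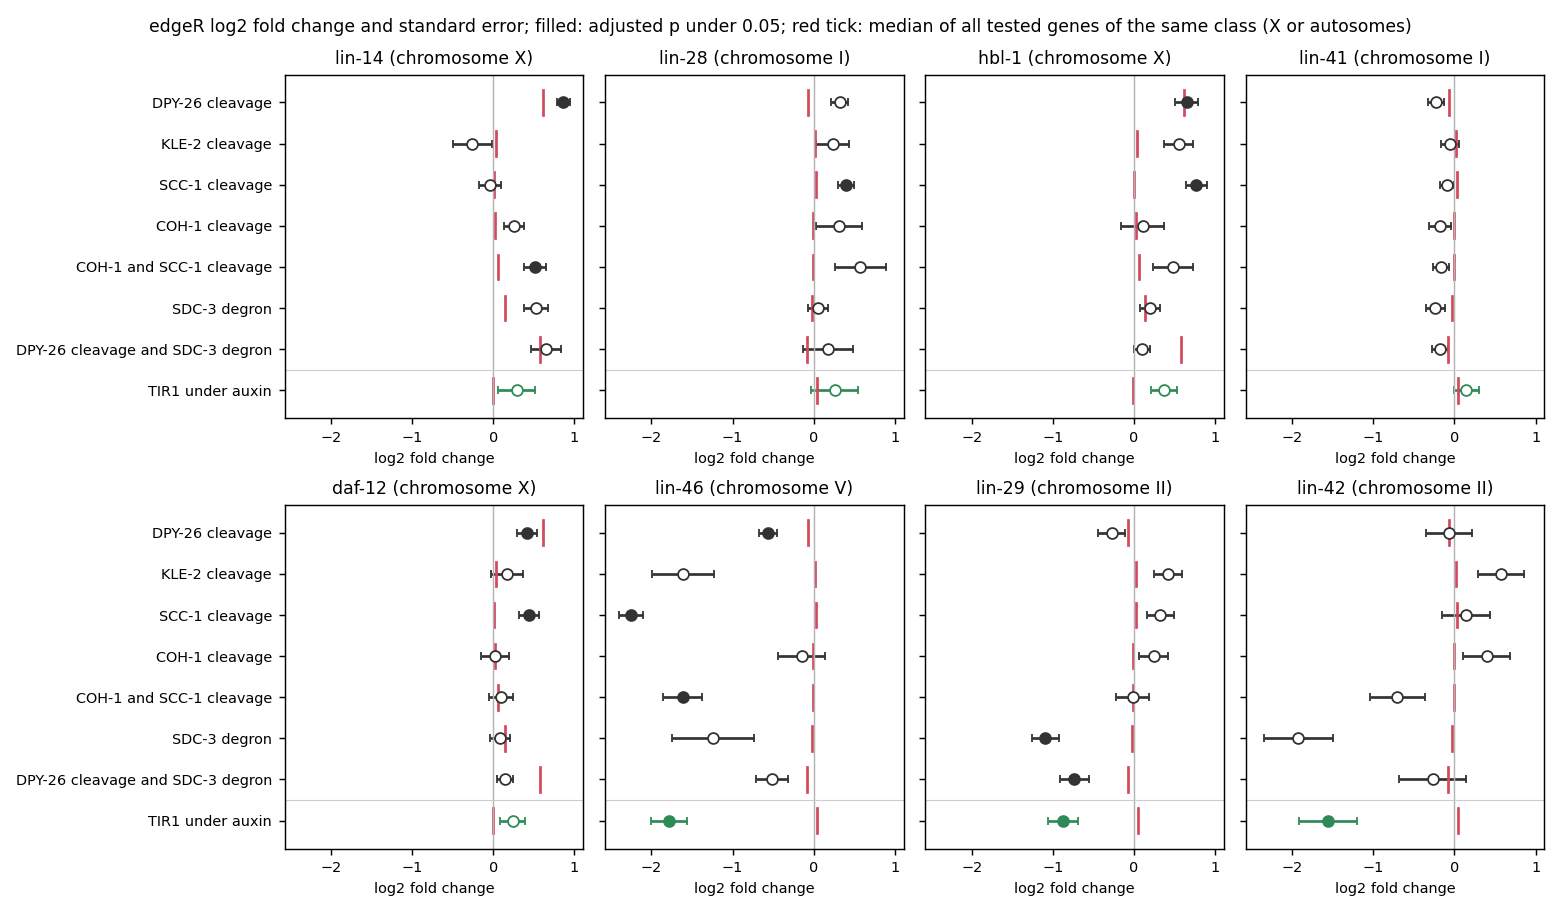
Log2 fold change of each heterochronic gene in the 7 comparisons with a cleavage or degron and in the comparison of both control strains on auxin. Points are edgeR estimates, bars 1 SE, filled points have an adjusted p under 0.05, and red ticks are the median of all tested X-linked or autosomal genes. *lin-46* lies below 0 throughout, from -2.25 to -0.15 in the 7 comparisons, and *lin-41* keeps between -0.23 and -0.06 there.

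*lin-14* (WBGene00003003, chromosome X, 11465560 to 11485871, plus strand) encodes a nuclear protein that specifies L1 fates and is the founding target of the small RNA lin-4. The 4 DPY-26 cleavage samples had 203, 230, 189 and 215 CPM of *lin-14*, and the 4 TEV controls had 123, 107, 116 and 113 CPM. All cleavage samples lay above all controls. The rise was 0.86 (SE 0.08) on the log2 scale, or 1.82-fold, with an adjusted p of 0.000385. X-linked genes rose as a class in this comparison, with a median of 0.61 against -0.07 for autosomal genes, and 67.7% of tested X-linked genes passed upward. *lin-14* exceeded the X-linked median by 0.25. In the animals with DPY-26 cleavage and SDC-3 degron, *lin-14* was at 171, 242 and 247 CPM, against 116, 144 and 162 CPM in the TIR1 controls, again without overlap. That difference of 0.65 (SE 0.18) had an adjusted p of 0.0504, next to an X-linked median of 0.58, and passed at 0.0301 without replicate 1 of the cleaved and degraded group. With the SDC-3 degron on its own, auxin samples had 163, 143 and 168 CPM and ethanol samples 122, 114 and 92.7 CPM. The groups did not overlap, but the difference of 0.53 (SE 0.15) did not pass, at an adjusted p of 0.102, and X-linked genes had a median of 0.14. DESeq2 gave adjusted p-values of 0.00798 and 0.0285 for these degron comparisons.

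In the other cleavages *lin-14* was less uniform. After cleavage of COH-1 and SCC-1 it was at 154, 187 and 200 CPM (199.5), against 112, 127 and 137 CPM in the TEV controls, a rise of 0.52 (SE 0.13) with an adjusted p of 0.0352 and no overlap. This call was lost without control replicate 1, 2 or 3, at adjusted p-values of 0.0851, 0.0518 and 0.0543, and without test replicate 2 or 3, at 0.115 and 0.124. After SCC-1 cleavage alone *lin-14* was at 95.6, 97.8, 148 and 110 CPM, on both sides of its controls, and the change was -0.04. After COH-1 cleavage it was at 138, 162 and 148 CPM, all above the controls, with a change of 0.25 (SE 0.12) and an adjusted p of 0.812. KLE-2 cleavage samples had 109, 96.0, 53.0 and 128 CPM, the lowest of all 40 samples being replicate 3. The change of -0.26 (SE 0.24) became -0.05 without it, and neither value passed. X-linked medians were between 0.00 and 0.06 in these 4 comparisons.

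*lin-28* (WBGene00003014, chromosome I, 8407630 to 8410804, minus strand) encodes an RNA-binding protein that keeps L2 fates and blocks the maturation of let-7. Its estimate was above 0 in 7 of 7 comparisons and it passed in 1 of them. After SCC-1 cleavage the samples had 36.4, 33.2, 30.7 and 34.3 CPM, and the TEV controls had 23.04, 22.5, 29.0 and 26.3 CPM. The groups did not overlap, and the rise was 0.40 (SE 0.10), with an adjusted p of 0.0152, or 0.124 in a fit of all groups of the batch. After DPY-26 cleavage it was at 33.6, 27.0, 34.3 and 31.5 CPM, which overlaps the controls, and the difference of 0.32 (SE 0.11) had an adjusted p of 0.0536. It passed there without TEV control replicate 3 (0.0359), without DPY-26 replicate 2 (0.0209), with DESeq2 (0.0335) and with TMM on autosomal genes (0.0299). The other 5 differences lay between 0.05 and 0.57, with adjusted p-values from 0.231 to 0.922, and the one after KLE-2 cleavage went from 0.23 to 0.40 without replicate 3 (adjusted p of 0.13). *lin-28* shares 16 bases with the gene F02E9.1.

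*hbl-1* (WBGene00001824, chromosome X, 5822142 to 5827755, plus strand) encodes a hunchback-like zinc-finger transcription factor that promotes L2 fates and is a target of the let-7 family. The TEV controls of batch 1 had 18.9, 16.6, 21.6 and 22.3 CPM. DPY-26 cleavage samples had 34.7, 24.4, 30.0 and 35.8 CPM and SCC-1 cleavage samples 32.4, 30.4, 41.96 and 31.9 CPM. Each cleavage group lay wholly above these controls. The rise was 0.65 (SE 0.14) with an adjusted p of 0.0115 after DPY-26 cleavage, and 0.76 (SE 0.13) with an adjusted p of 0.00293 after SCC-1 cleavage. After DPY-26 cleavage *hbl-1* exceeded the X-linked median by 0.04 only, whereas after SCC-1 cleavage the X-linked median was 0.00. KLE-2 cleavage samples, at 28.8, 26.1, 23.2 and 38.6 CPM, were also all above the controls, with a difference of 0.55 (SE 0.18) and an adjusted p of 0.192, or 0.65 and 0.0763 without replicate 3. The 16.6 CPM of a batch 1 control was the lowest *hbl-1* value of the 40 samples, and the TEV controls of batch 2 spanned 18.4 to 34.3 CPM. With COH-1 and SCC-1 cleaved together, *hbl-1* was at 37.5 to 45.3 CPM, wholly above these batch 2 controls. That difference of 0.48 did not pass. COH-1 cleavage alone gave 0.11, with an adjusted p of 0.969. In the degron comparisons *hbl-1* differed by 0.19 (adjusted p of 0.41) and 0.10 (adjusted p of 0.536). In the latter, with DPY-26 cleavage and SDC-3 degron, it was below the X-linked median by 0.48.

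**Figure D3:**
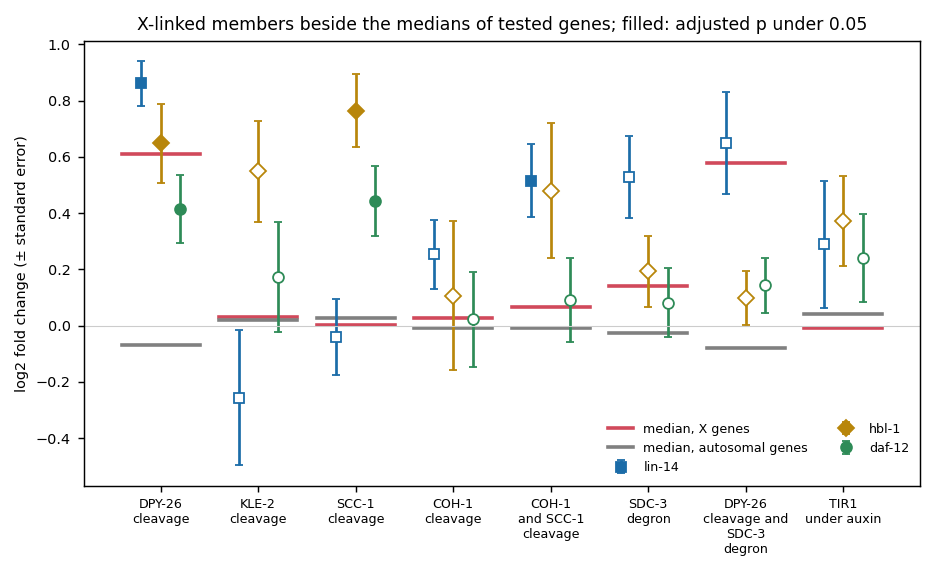
Log2 fold change of the X-linked heterochronic genes *lin-14*, *hbl-1* and *daf-12* in each comparison (points, bars 1 SE), beside the median of all tested X-linked genes and of all tested autosomal genes. The X-linked median is 0.61 after DPY-26 cleavage and 0.58 with DPY-26 cleavage and SDC-3 degron, and at most 0.14 in the other comparisons.

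*daf-12* (WBGene00000908, chromosome X, 10635908 to 10666875, plus strand) encodes the nuclear hormone receptor that permits L3 fates and, without its ligand, dauer arrest. In the TEV controls of batch 1 it was at 118, 126, 151 and 150.2 CPM. DPY-26 cleavage samples had 178, 154, 183 and 214 CPM and SCC-1 cleavage samples 171 (170.9), 171 (171.2), 229 and 179.9 CPM. Each cleavage group lay above the controls, the lowest DPY-26 sample by little. The rise was 0.41 (SE 0.12) after DPY-26 cleavage, with an adjusted p of 0.0346, and 0.44 (SE 0.12) after SCC-1 cleavage, with an adjusted p of 0.0278. *daf-12* was below the X-linked median by 0.20 on the log2 scale after DPY-26 cleavage. The call after DPY-26 cleavage was lost without TEV control replicate 1 or 2 (0.0898 and 0.0967) and without DPY-26 replicate 1, 3 or 4 (0.0651, 0.0771 and 0.0618). The call after SCC-1 cleavage was lost without TEV control replicate 1 or 2 (0.0786 and 0.0836). In a fit of all groups of the batch these differences had adjusted p-values of 0.112 and 0.0958. With DPY-26 cleavage and SDC-3 degron, *daf-12* was at 265, 278 and 299 CPM against 251, 265 and 248 CPM. The difference of 0.14 did not pass, at an adjusted p of 0.361, and was 0.44 below the X-linked median. The other 4 differences lay between 0.02 and 0.17, that after KLE-2 cleavage being 0.17, or 0.27 without replicate 3 (adjusted p of 0.424).

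*lin-41* (WBGene00003026, chromosome I, 9334800 to 9342496, minus strand) encodes a TRIM-NHL RNA-binding protein, the let-7 target that holds back LIN-29 until the end of larval life. It was the steadiest of the 8 genes, with its highest sample 1.74 times its lowest over the 40 samples, against 11.4 times for *lin-46* and 10.1 times for *lin-42*. Its estimates were below 0 in 7 of 7 comparisons, between -0.23 and -0.06, and passed in none of them. After KLE-2 cleavage the estimate was -0.06, or -0.08 without replicate 3. The SDC-3 degron samples had 280, 258 and 275 CPM and the ethanol samples 325, 284 and 349 CPM, without overlap, at a difference of -0.23 and an adjusted p of 0.315. After DPY-26 cleavage *lin-41* was at 223, 201, 209 and 275 CPM against 255, 260.2, 273 and 270 CPM (269.9), a difference of -0.23 (SE 0.10) with an adjusted p of 0.131. The highest of these cleavage samples was replicate 4, and without it the difference was -0.33 with an adjusted p of 0.0089.

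*lin-46* (WBGene00003031, chromosome V, 12968855 to 12970730, plus strand) encodes a gephyrin-related protein that acts downstream of *lin-28* and opposes HBL-1 in the step from L2 to L3 fates. Its estimate was below 0 in 7 of 7 comparisons and it fell in 3 of them. The TEV controls of batch 1 had 21.8, 21.6, 19.2 and 19.6 CPM. SCC-1 cleavage samples had 3.29, 5.13, 3.86 and 5.22 CPM, which is 4.77-fold lower, with a log2 change of -2.25 (SE 0.15) and an adjusted p of 0.000155. DPY-26 cleavage samples had 11.9, 16.04, 12.2 and 15.8 CPM, a fall of 1.48-fold with a log2 change of -0.56 (SE 0.12) and an adjusted p of 0.00907. The latter call was lost in a fit of all groups of the batch, at -0.54 and 0.285. Neither group overlapped the controls, and the SCC-1 samples all lay under the DPY-26 samples. The KLE-2 cleavage samples had 7.70, 11.95, 3.01 and 4.20 CPM, all below the controls but widely spread. Their log2 difference of -1.61 (SE 0.38) had an adjusted p of 0.0937 by edgeR, 0.0151 in a fit of all groups of the batch and 0.002 by DESeq2. Without replicate 3 the difference was -1.38 with an adjusted p of 0.0651, and without replicate 2 it passed, at -2.05 and 0.0326.

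In batch 2, the TEV controls had 13.8, 22.2 and 12.2 CPM of *lin-46*, the COH-1 cleavage samples 10.3, 18.4 and 14.9 CPM, and the samples with COH-1 and SCC-1 cleaved 5.14, 5.46 and 5.22 CPM. The double cleavage lay wholly under the other groups. Its fall was 3.06-fold, with a log2 change of -1.61 (SE 0.24) and an adjusted p of 0.00813, while COH-1 cleavage alone gave -0.15 (SE 0.29) and an adjusted p of 0.958. Over both batches, the 7 samples with SCC-1 cleaved had 3.29 to 5.46 CPM and the 7 TEV controls without auxin 12.2 to 22.2 CPM. Reads come from whole animals, so fewer cells that express a gene and less of its RNA per cell cannot be told apart.

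*lin-46* was low in every sample with both TIR1 and auxin, the TIR1 control included. SDC-3 degron samples had 2.99, 3.27 and 3.16 CPM on auxin and 7.31, 12.3 and 2.63 CPM on ethanol, where replicate 3 lay under all auxin samples. The difference of -1.24 (SE 0.51) had an adjusted p of 0.213, and without that ethanol sample it was -1.66 with an adjusted p of 0.0304. With DPY-26 cleavage and SDC-3 degron it was at 2.76, 2.37 and 1.95 CPM, just under the TIR1 controls at 3.53, 3.85 and 2.77 CPM, with a difference of -0.51 and an adjusted p of 0.127.

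*lin-29* (WBGene00003015, chromosome II, 11917642 to 11935343, minus strand) encodes the zinc-finger transcription factor that ends the cascade by turning on the adult program of the hypodermis. It shares 2 bases with *hmg-12*. The SDC-3 degron samples had 8.21, 11.9 and 9.30 CPM on auxin and 21.7, 19.9 and 21.2 CPM on ethanol. The groups were far apart, and the fall was 2.14-fold, with a log2 change of -1.10 (SE 0.17) and an adjusted p of 0.0416. The call was lost without auxin replicate 1 or 3 (0.212 and 0.185) and without ethanol replicate 1 or 2 (0.156 and 0.103). With DPY-26 cleavage and SDC-3 degron, *lin-29* was at 7.90, 6.49 and 8.89 CPM and in the TIR1 controls at 15.2, 13.1 and 10.3 CPM. This fall of 1.67-fold had a log2 change of -0.74 (SE 0.18) and an adjusted p of 0.0321, and the groups did not overlap. It was lost without replicate 1, 2 or 3 of the cleaved and degraded group (0.0765, 0.108 and 0.0624) and without TIR1 replicate 1 or 2 (0.0598 and 0.0985).

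Outside the degron strains, *lin-29* passed in no comparison with a cleavage. DPY-26 cleavage samples had 12.8, 8.71, 14.1 and 12.7 CPM and their controls 12.5, 12.6, 15.4 and 17.5 CPM, with a difference of -0.27 and an adjusted p of 0.253. SCC-1 cleavage samples had 13.7, 17.7, 21.7 and 20.8 CPM, with a difference of 0.33 (SE 0.16) and an adjusted p of 0.177. With the replicate number as a block, the pairing that passed the check for this comparison, the latter was 0.32 with an adjusted p of 0.0496. KLE-2 cleavage samples, at 21.8, 15.7, 23.6 and 17.1 CPM, differed by 0.42 (SE 0.18, adjusted p of 0.31), or by 0.32 without replicate 3. The COH-1 and the double cleavage gave 0.24 and -0.02.

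*lin-42* (WBGene00018572, chromosome II, 1233236 to 1252359, minus strand), which paces the moults, spread widely within groups, so that large differences between group means often did not pass. The SDC-3 degron samples had 206, 388 and 113 CPM on auxin and 999, 779 and 911 CPM on ethanol. No auxin sample came near an ethanol sample, and the mean was 3.79-fold lower, yet the log2 difference of -1.92 (SE 0.42) had an adjusted p of 0.0708. DESeq2 gave 9.73e-05 for it, and edgeR gave -2.49 and 0.0181 without auxin replicate 2. After cleavage of COH-1 and SCC-1, *lin-42* was at 276, 373 and 195 CPM against 598, 270.2 and 500.04 CPM in the controls. The difference was -0.70 (SE 0.34) with an adjusted p of 0.184, and -0.99 with 0.0348 without control replicate 2, the control that overlapped the cleaved samples. In batch 1 the controls alone spanned 301 to 585 CPM, and the DPY-26, KLE-2 and SCC-1 cleavage samples spanned 229 to 518, 446 to 958 and 283 to 641 CPM. Their differences of -0.07, 0.57 and 0.14 had adjusted p-values of 0.88, 0.388 and 0.76. The highest KLE-2 sample in CPM was replicate 3, without which the difference was 0.33. In TPM that replicate was at 170, and replicates 1, 2 and 4 were at 249, 232 and 139.

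Over the 40 samples, high and low levels of *lin-42* went with high and low summed levels of the moulting genes. These are a list of 20 collagen, cuticle and moulting cycle genes that does not include *lin-42*. The list summed to 16673 to 18676 CPM in the SDC-3 degron strain on ethanol, where *lin-42* was at 779 to 999 CPM. In the 9 samples with both TIR1 and auxin it summed to 2809 to 8740 CPM, with *lin-42* at 98.5 to 388 CPM. In the TEV strain on auxin it summed to 11206 to 15587 CPM, with *lin-42* at 480 to 701 CPM (479.5 to 700.8). The double cohesin cleavage had 4139 to 6867 CPM (4138.5 to 6867.1) against 6729 to 13176 CPM in its controls. KLE-2 cleavage replicate 3 had the highest sum of all 40 samples in CPM, 26322 CPM, and 958 CPM of *lin-42*. In TPM the list reached at most 5689 in the KLE-2 cleavage group and 6701 in the SDC-3 degron strain on ethanol. Of the tested genes of the list, 0 rose and 0 fell with the SDC-3 degron, where 1.27% of all genes changed. Their median log2 fold change was -1.73 there, against 0.00 for all genes. The list had 1 gene up and 14 down of 19 in the comparison of the TIR1 strain with the TEV strain, where 4.68% of all genes rose and 9.76% fell. After SCC-1 cleavage it had 10 up and 2 down of 19, against 14.4% and 14.6% of all genes. The median log2 fold change of the list was 1.09 there, while *lin-42* changed by 0.14 and did not pass. The summed list overlapped its controls, at 8169 to 16722 against 9959.5 to 15155 CPM. The double cleavage gave 0 up and 5 down of 19, against 10.3% and 11%. DPY-26 cleavage gave 1 up and 1 down of 19, against 15.5% and 11.9%. With DPY-26 cleavage and SDC-3 degron it was 0 up and 1 down of 18, against 11.2% and 3.46%. After KLE-2 and COH-1 cleavage, where 1.17% and 0.00719% of all genes changed, 0 of 19 passed in either direction. Their median log2 fold changes were 1.13 (0.96 without KLE-2 replicate 3) and 0.18. After SCC-1 cleavage the fibrillin-related *fbn-1* rose by 2.89 on the log2 scale, and the collagens *dpy-9* and *dpy-10* by 1.43 and 1.42, while *mlt-10* changed by -1.74 and the collagen *rol-6* by -1.46. After the double cleavage *mlt-10* changed by -3.39, *rol-6* by -2.18 and *mlt-8* by -1.33. Samples of a group can sit at different points of the moulting cycle, and the part of this in the differences of *lin-42* and of the other members was not tested.

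**Figure D4:**
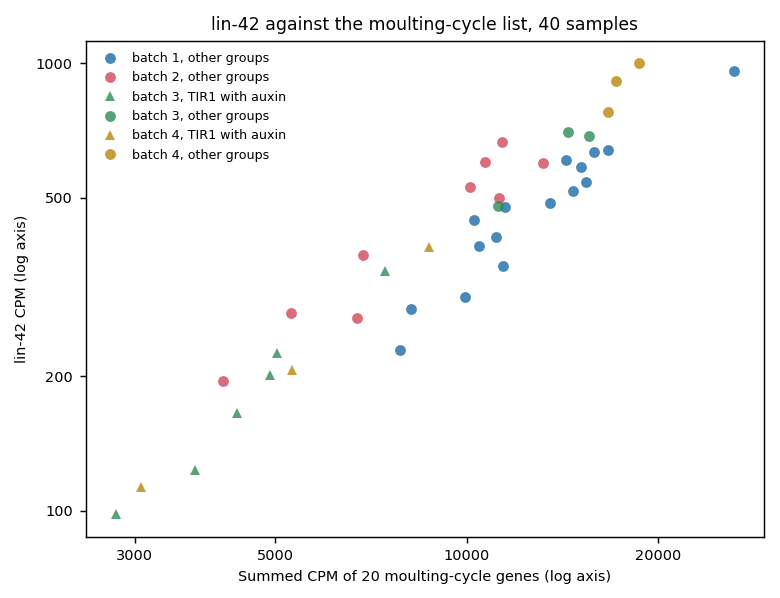
*lin-42* level against the summed level of 20 moulting cycle genes in the 40 samples, both in CPM on log axes, with colours for batches and triangles for samples with TIR1 and auxin. Samples with TIR1 on auxin lie at the lower left, at 98.5 to 388 CPM of *lin-42*, and the SDC-3 degron strain on ethanol and KLE-2 cleavage replicate 3 lie at the upper right.

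The comparison of control strains shows how far these genes moved with no SMC complex targeted. On auxin, the TIR1 strain had 3.53, 3.85 and 2.77 CPM of *lin-46* and the TEV strain 9.02, 15.2 and 11.3 CPM, which is 3.45-fold lower, with a log2 change of -1.79 (SE 0.22) and an adjusted p of 0.00137. *lin-42* was at 343, 166 and 124 CPM in the TIR1 strain and at 701, 688 and 480 CPM (479.5) in the TEV strain, a log2 change of -1.56 (SE 0.36) with an adjusted p of 0.0213. *lin-29* was at 15.2, 13.1 and 10.3 CPM against 19.2, 26.3 and 26.2 CPM, a log2 change of -0.88 (SE 0.18) with an adjusted p of 0.0132. None of these pairs of groups overlapped. The call of *lin-42* was lost without TIR1 replicate 2 (0.0767) or TEV replicate 1 or 2 (0.0561 and 0.0857), and that of *lin-29* without TEV replicate 2 (0.0647). The other 5 genes differed by 0.15 to 0.37 and did not pass.

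Set beside each other, the 9 samples with TIR1 and auxin in batches 3 and 4 had 1.95 to 3.85 CPM of *lin-46*, 98.5 to 388 CPM of *lin-42* and 6.49 to 15.2 CPM of *lin-29*. The 3 samples with TIR1 and no auxin had 2.63 to 12.3, 779 to 999 and 19.9 to 21.7 CPM of these genes, and the 3 with auxin and no TIR1 had 9.02 to 15.2, 479.5 to 701 and 19.2 to 26.3 CPM. The fall of *lin-29* and the difference of *lin-42* in the SDC-3 degron comparison therefore lie in genes that also differed between control strains. No untagged TIR1 group without auxin was analysed here, so the loss of SDC-3 and auxin in a TIR1 animal cannot be told apart in that comparison. The comparison of DPY-26 cleavage and SDC-3 degron has TIR1 and auxin on both sides.

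Direct comparisons between cleavages of a batch tested whether a gene that passed in one and not in the other differed between them. DPY-26 against KLE-2 cleavage gave 1 of the 8 genes, *lin-14*, higher by 1.12 (SE 0.24) after DPY-26 cleavage, with an adjusted p of 0.0295, against 6.88% of all genes (5.15% higher, 1.73% lower). The call was lost when any of 6 of the 8 libraries was left out, with adjusted p-values from 0.0599 to 0.0847. Without KLE-2 replicate 3 it held, at 0.93 and 0.00853, against 13.4% of all genes. *lin-46* differed by 1.06 with an adjusted p of 0.127, and passed without KLE-2 replicate 2 (1.48 and 0.045) and in a fit of all groups of the batch (1.07 and 0.0255). *lin-29* differed by -0.70 with 0.075, and passed in the latter fit (0.0214) and with DESeq2 (0.0165). DPY-26 against SCC-1 cleavage gave 3 of the 8, against 34.2% of all genes (18.6% higher, 15.6% lower). *lin-14* was higher by 0.92 (SE 0.15, adjusted p of 0.00195) and *lin-46* by 1.71 (SE 0.18, adjusted p of 0.00037) after DPY-26 cleavage, and *lin-29* was lower, at -0.58 (SE 0.19, adjusted p of 0.0399). The *lin-29* call was lost without any of 6 of the 8 libraries, with adjusted p-values from 0.0627 to 0.0948, and with TMM on autosomal genes (0.0629). SCC-1 against KLE-2 cleavage gave none of the 14345 genes tested by edgeR, 830 at an unadjusted p under 0.05 and 128 by DESeq2, and the *lin-46* difference was -0.64 with an adjusted p of 0.836. The double cleavage against COH-1 cleavage gave 2 of the 8, against 10.2% of all genes (4.41% higher, 5.80% lower). *lin-46* was lower by a log2 change of -1.47 (SE 0.22, adjusted p of 0.0153) and *lin-42* by -1.10 (SE 0.23, adjusted p of 0.0279), both without overlap. Leaving out 1 library lost the *lin-46* call in 3 of 6 cases (0.0591 to 0.0833) and the *lin-42* call in 4 of 6 (0.06 to 0.113), and the latter was also lost in a fit of all groups of the batch (0.0676).

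At the level of transcripts, the Salmon estimates split reads among overlapping isoforms, and 8 tests of a member's transcript passed. They include the only transcript of *lin-46*, R186.4.1, with -0.57 (adjusted p of 0.0289) after DPY-26 cleavage and -2.25 (0.00118) after SCC-1 cleavage. After DPY-26 cleavage, where 12.1% of all transcripts changed, both *lin-14* transcripts rose, T25C12.1a.1 by 0.68 (SE 0.18, adjusted p of 0.0479) and T25C12.1b.1 by 0.90 (SE 0.06, adjusted p of 0.0018). After SCC-1 cleavage, where 16.4% changed, the short 3' transcript F47F6.1g.1 of *lin-42* fell, with a log2 change of -1.14 (SE 0.19) and an adjusted p of 0.00807, while the sum of the gene gave 0.14. In the other 6 comparisons with a control, 0 to 0.736% of all transcripts changed (0.00971% after KLE-2 cleavage, 0.216% after the double cleavage and 0.736% between the control strains), and no transcript of a member passed. The mean share of F47F6.1g.1 in the *lin-42* TPM was 26.6% after SCC-1 cleavage and 51.9% in the controls. The *hbl-1* transcript F13D11.2a.1 rose by 0.55 (adjusted p of 0.0343) after SCC-1 cleavage. The *daf-12* transcript F11A1.3c.4 rose by 0.56 (0.024) after DPY-26 cleavage and by 0.55 (0.0108) after SCC-1 cleavage. The shares of these transcripts also varied widely. Over the 40 samples, F11A1.3c.4 made 0 to 46.3% of the *daf-12* TPM and F47F6.1g.1 made 0 to 57.4% of the *lin-42* TPM. F13D11.2a.1 made 36.04 to 100% of the *hbl-1* TPM. Whether their changes lie in the transcripts or in the split of reads among isoforms was not tested. Isoform shares differed between batches, since T25C12.1a.1 made 14.7 to 24.9% of the *lin-14* TPM in batch 1 and 43.5 to 62.9% in the other batches. The shares of the *lin-41* transcripts b.1 and b.3 swung from 1.49 to 99.9% and from 0 to 97.1%, so no isoform of *lin-41* is read here.

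A list of 37 further genes of the timing pathway (16 of the small-RNA machinery, 15 timing regulators and 6 temporal outputs) had 32 members in the quantified transcriptome. Of those tested, 8 rose and 3 fell of 32 after DPY-26 cleavage, 8 and 6 of 30 after SCC-1 cleavage, 0 and 6 of 30 after the double cleavage and 7 and 3 of 32 with DPY-26 cleavage and SDC-3 degron. The shares of all genes called in these comparisons were 27.5%, 29.0%, 21.3% and 14.7%. None passed after KLE-2 or COH-1 cleavage or with the SDC-3 degron, and 2 rose and 3 fell of 31 between the control strains, where 14.4% of all genes were called. Median log2 fold changes of the list were between -0.08 and 0.16, next to medians of all tested genes of -0.02 to 0.04. After DPY-26 cleavage the X-linked genes *nhr-25*, a nuclear hormone receptor of the moult, *daf-9*, the cytochrome P450 that makes the DAF-12 ligand, and *myrf-2* rose by 0.83, 1.06 and 0.58. The X-linked median was 0.61 in that comparison. *cgh-1*, *pash-1* and *dcr-1*, the latter pair in the processing of small RNAs, changed by -0.35, -0.41 and -0.38. After SCC-1 cleavage *nhr-23*, *pan-1* and *myrf-1* rose by 1.66, 1.05 and 1.03, while *bed-3* changed by -2.28, *kin-20* by -0.95 and *nhr-25* by -0.94. After the double cleavage *bed-3* changed by -2.03, the DM-domain gene *mab-3* by -1.66 and *daf-9* by -1.09. With DPY-26 cleavage and SDC-3 degron the X-linked genes *nhr-25* and *apl-1* rose by 0.65 and 0.61, next to an X-linked median of 0.58. In the same animals *cgh-1*, *xrn-2*, an exonuclease that degrades small RNAs, and *pan-1* changed by -0.46, -0.43 and -0.35. The adult collagen *col-19*, also X-linked, rose there by 2.63, to a level of only 0.58 CPM, and after DPY-26 cleavage alone by 3.81, to 0.73 CPM. Between the control strains *dmd-3* and *mab-3* rose by 1.27 and 0.80, and *bed-3*, *kin-20* and *nhr-25* changed by -2.92, -0.61 and -0.54.

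Marker genes of cell types were also called in some of the same comparisons. Of all genes, 27.5% were called after DPY-26 cleavage, 29.0% after SCC-1 cleavage and 21.3% after the double cleavage. The share was 14.7% with DPY-26 cleavage and SDC-3 degron and 14.4% between the control strains. Calls of single genes in such short lists are therefore not read as a change of a cell type. After the double cleavage, the germline list of 10 genes summed to 176 to 206 CPM against 270 to 401 CPM (270.5 to 400.8) in the controls and had 4 genes down and 0 up, *pgl-3*, *pgl-1* and *glp-1* among them at -1.01, -0.73 and -0.70. It had 1 gene down after DPY-26 cleavage and none in the other comparisons. Of the 8 seam cell genes, where the cascade acts, *ceh-16* and *rnt-1* rose by 0.52 and 0.54 after DPY-26 cleavage, *egl-18* by 0.45 after SCC-1 cleavage and *grd-10* by 0.59 between the control strains, and none fell. Of 5 neuronal genes, *sbt-1*, *egl-3* and *snb-1* rose after SCC-1 cleavage, *sbt-1* and *egl-3* after the double cleavage and 1 gene after DPY-26 cleavage. Of 3 muscle genes, 2 fell after DPY-26 cleavage and 1 rose after the double cleavage, and of 3 intestinal genes 1 fell after DPY-26 cleavage and 1 after SCC-1 cleavage. A sperm gene fell after DPY-26 cleavage and another rose after SCC-1 cleavage, a vitellogenin gene fell after SCC-1 cleavage, and among oocyte genes 1 rose and 1 fell after DPY-26 cleavage and 1 rose with DPY-26 cleavage and SDC-3 degron. The part of any of these lists in the changes of the heterochronic genes was not tested.

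Within groups, each member was also compared with 9681 genes of at least 5 CPM on average, by the Pearson correlation of log2 CPM deviations from the group mean over the 40 samples. The closest pattern to *lin-42* was that of *wrt-2*, a hedgehog-related gene, at r = 0.958, followed by *cdh-12* and C01F1.5 at 0.952 and 0.951. Those most like *lin-14* were *twk-12*, F25H2.12 and *stim-1* (0.867, 0.865 and 0.859), and those most like *lin-28* were *gpc-1*, C35E7.11 and Y51H7C.41 (0.893, 0.886 and 0.871). *hbl-1* and *daf-12* were among the closest of each other at 0.855, after *ncx-3* and Y50D4B.4 for *hbl-1* (0.882 and 0.878) and *fbn-1* and Y50D4B.4 for *daf-12* (0.875 and 0.871). *lin-46* was closest to *ltd-1*, *zig-6* and *noca-2* (0.864, 0.862 and 0.857), *lin-41* to *anc-1*, *pqn-87* and *unc-115* (0.876, 0.873 and 0.858), and *lin-29* to C11H1.9, *fkb-5* and T04G9.4 (0.813, 0.808 and 0.793). Over these 24 correlations Spearman's rho was 0.714 to 0.955, and r without the 2 samples farthest from the median of the member was 0.776 to 0.952. Points share libraries and batches, and the correlations describe these samples only.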

How the data were processed

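Total RNA of whole L3 animals was sequenced with a stranded mRNA library kit. The authors quantified transcripts with Salmon and deposited, per lane, an estimated count and a TPM value for each of 42938 transcripts. The submitters' processing notes name cutadapt 2.5, Salmon 1.5.2 and STAR 2.7.9a without their roles, and the transcriptome behind the estimates is not given in the sources used here. Counts of the 82 deposited tables were summed over lanes and runs (1 sample had 4 tables). TPM values were averaged, unweighted, over the tables of a sample. Transcripts were joined to WBcel235 genes by transcript name (30905) or sequence name (11992). The 41 without a gene, 0.0066 to 0.0128% of reads, were left out of library sizes and tests. Gene sums of the estimated counts were rounded to whole numbers. TPM served to compare levels between genes, for marker sums and isoform shares, and beside CPM for KLE-2 cleavage replicate 3.

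Genes with at least 10 reads in at least 50% of the samples of a comparison were tested with edgeR 4.0.16 (R 4.3.3), TMM scaling and the quasi-likelihood test, on the samples of the groups compared, with Benjamini-Hochberg adjustment over all genes tested and a threshold of 0.05. The 12 comparisons were 7 of a cleavage or degron with its batch control, 4 between cleavages of a batch, and 1 between control strains. Test scripts were checked on simulated data. Exact permutation tests are not printed, since 4 against 4 samples cannot go below 0.0286 and 3 against 3 not below 0.1. Tables were made with Python 3.11.15 (pandas 2.3.3, scipy 1.17.1) and figures with matplotlib 3.10.9.

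Each sample took its group and number from its label. All 8 members are named, with at most 3 list genes by p in each direction of a comparison and the 3 genes most like each member (at least 5 CPM on average). The members, lists and tests were chosen with earlier results of these data known. Pairing of the replicate numbers was checked by the lowest r between the deviations of same-numbered samples. The check was passed for SCC-1 cleavage (r of 0.104 to 0.215), COH-1 cleavage (0.472 to 0.637) and double against COH-1 cleavage (0.245 to 0.454). In the other comparisons the lowest r was between -0.58 and 0.094. For COH-1 cleavage the study's text also speaks of replicate batches. Otherwise the pairing rests on these correlations only, and for SCC-1 cleavage the numbers in the table names and in the labels differ. Alternatives were DESeq2 1.42.0, its size factors, TMM on autosomal genes, no filter on low counts, a fit of all groups of a batch, the replicate block and leaving out each sample.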

Additional observations from a re-analysis of the deposited data

Results flagged for a closer look

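Each of the 8 genes was checked in each of the 4 groups of 4 samples, 32 sets of values, for a sample far from the others. Chance marks about 1 in 20 of such sets. SCC-1 cleavage replicate 3 was marked for both *hbl-1*, at 41.96 CPM with a gap of 0.831 of the group's range, and *daf-12*, at 229 CPM with a gap of 0.844, both above the critical value of Dixon's test. Both marks fall on 1 library, in genes whose deviations within groups correlated at r = 0.855.

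In 6 cases, differences in response between cleavages of a batch passed a direct test. Of all genes, 6.88% passed between DPY-26 and KLE-2 cleavage and 34.2% between DPY-26 and SCC-1 cleavage. Between the double and COH-1 cleavage 10.2% did. *lin-14* was higher after DPY-26 cleavage than after KLE-2 cleavage by 1.12 on the log2 scale (adjusted p of 0.0295, edgeR) and than after SCC-1 cleavage by 0.92 (0.00195). *lin-46* was higher after DPY-26 than after SCC-1 cleavage by 1.71 (0.00037) and *lin-29* differed by -0.58 (0.0399). The double cleavage differed from COH-1 cleavage by -1.47 in *lin-46* (0.0153) and by -1.10 in *lin-42* (0.0279). Leaving out 1 library at a time kept *lin-14* and *lin-46* past the threshold in the comparison of DPY-26 with SCC-1 cleavage and ended each of the other 4 calls in some cases.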

How the results depend on the processing

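No heterochronic gene past the threshold changed sign under any alternative run. Below the threshold, 19 differences, of at most 0.27 in size, took the other sign in 39 fits, 36 of them with 1 sample left out, with adjusted p-values of at least 0.584. With a fit of all groups of a batch, the number of heterochronic genes past the threshold was 2 rather than 4 after DPY-26 and after SCC-1 cleavage, and 1 rather than 0 after KLE-2 cleavage. The lost calls were *lin-46* and *daf-12* (0.285 and 0.112) and *lin-28* and *daf-12* (0.124 and 0.0958). With DESeq2 it was 1 rather than 0 after KLE-2 cleavage, 3 rather than 1 with the SDC-3 degron and 2 rather than 1 with DPY-26 cleavage and SDC-3 degron. For the latter it was also 2 with TMM on autosomal genes and with no filter on low counts. Leaving out 1 sample gave 3 to 5 for DPY-26, 0 to 1 for KLE-2, 3 to 4 for SCC-1, 0 to 0 for COH-1, 1 to 2 for the double cleavage, 0 to 2 for the SDC-3 degron, 0 to 1 with DPY-26 cleavage and SDC-3 degron, and 1 to 3 between the control strains. The cause of these changes was not tested.

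The count over all genes moved by more than 1.5 times from 3938 to 2153 (all groups) for DPY-26 cleavage, from 168 to 1003 (DESeq2), 30 (block) and 632 (all groups) for KLE-2, from 4176 to 2564 (all groups) for SCC-1, from 1 to 120 (DESeq2), 9 (block) and 18 (all groups) for COH-1, from 173 to 1589 (DESeq2), 261 (no filter) and 977 (block) for the SDC-3 degron, from 2053 to 3953 (block) with DPY-26 cleavage and SDC-3 degron, from 984 to 2346 (DESeq2) and 540 (block) for DPY-26 against KLE-2, and from 0 to 128 (DESeq2) for SCC-1 against KLE-2. Leaving out 1 sample also moved it, to 2350 and 2333 for DPY-26 (without TEV control replicates 2 and 4), 0 to 332 for KLE-2 (every sample), 0 for COH-1 (every sample), 1982 rather than 2995 for the double cleavage without control replicate 1 and at most 1347 without any cleaved replicate, 0 to 1233 for the SDC-3 degron (every sample), 842 to 1083 with DPY-26 cleavage and SDC-3 degron (without any cleaved replicate or TIR1 replicate 2), and 1297 and 1215 rather than 1999 between the control strains (without TIR1 or TEV replicate 2). With 3 or 4 samples in a group, differences that missed the threshold are not shown to be absent.

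With the replicate number as a block, *lin-28* after DPY-26 cleavage passed at 0.0377, *lin-42* with the SDC-3 degron at 0.0352 and *lin-14* with DPY-26 cleavage and SDC-3 degron at 0.0026. The lowest r of same-numbered samples was -0.23, 0.094 and 0.078 there, so the pairing did not pass the check. With DPY-26 cleavage and SDC-3 degron, however, the highest r was 0.668 and 3 of 3 samples correlated best with their own number. The failed check therefore does not show that those samples are unpaired. The number of heterochronic genes called became 2 rather than 1 in each of these degron comparisons. Beside *lin-29* after SCC-1 cleavage, the block changed no other call of a heterochronic gene. Every sample correlated best with its own number in none of the comparisons of batch 1, where SCC-1 cleavage had 1 of 4. After COH-1 cleavage, after the double cleavage and for double against COH-1 cleavage, 3 of 3 samples did. With the SDC-3 degron and between the control strains 2 of 3 did.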
